A study of Mus musculus with 3 samples.

Results

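The genes described here code for secreted proteins of 2 kinds. Odam, Amtn, Ambn and Amelx are enamel-type genes, and Muc5b, Tff2, Lipf, Bpifb2 and Wfdc18 are genes of mucosal or glandular secretions. These 9 genes were taken by name from the 21446 gene identifiers shared by 3 single-cell libraries. Their levels were read in epithelial cells and set against mesenchymal cells, which served as the measure of free RNA. A cell counted as epithelial with at least 5 unique molecular identifiers (UMIs) of Krt5 and Krt14 summed and at least 1 UMI of Epcam and Trp63 summed. The genes were chosen by their UMI counts in these same libraries, so their levels are a description and carry no test.

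The libraries came from mouse mandibular molars. Cells of Pthrp-mCherry knock-in mice, which express a red reporter where the parathyroid hormone-related protein gene is active, were pooled and sorted for the reporter at postnatal day 15 (P15), P25 and 8 weeks. The study asked how the cells that lay down cementum arise along the root, and all 3 libraries carried the same reporter allele and no treatment. Each time point had 1 library, so no difference between times has a replicate check, and P25 was counted with another software version and gene reference, which cannot be told apart from the time point.

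The P15, P25 and 8-week libraries held 12926, 8971 and 5192 cells, with a median of 14254, 15834 and 8713 UMIs per cell. Epithelial cells numbered 1506, 860 and 101, which was 11.7%, 9.59% and 1.95% of the cells. All 13 epithelial markers examined lay at least 4-fold above mesenchymal cells in every library, and 4 of these define the epithelial cells. Genes of keratinised epithelium passed the same fold in 6 of 7, 9 of 9 and 9 of 9 tested, and genes of simple or ductal epithelium in 0 of 1, 1 of 2 and 0 of 1. The reporter transcript itself reached 472, 300.03 and 395 CPM (counts per 1000000 UMIs of the summed cells) in the epithelial class, and 329, 395 and 550 CPM in the mesenchymal class. Libraries shared between 13 and 26 cell barcodes.

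Enamel is made by ameloblasts, epithelial cells that first secrete a matrix of amelogenin (Amelx), ameloblastin (Ambn) and enamelin, and later, in the maturation stage, degrade it while the crystals grow. Odontogenic ameloblast-associated protein (Odam) and amelotin (Amtn) belong to that later stage and are also made by the junctional epithelium that seals the gum to the tooth. Mucins such as Muc5b form the gel of mucous secretions, and trefoil factors such as Tff2 are secreted with them.

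Odam, Amtn and Ambn lie on chromosome 5 of GRCm38, read in the same direction within 584 kb. The gap is 482 kb between Odam and Amtn and 70.1 kb between Amtn and Ambn. Odam (ENSMUSG00000009580) lies from 87885029 to 87894174, Amtn (ENSMUSG00000029282) from 88376108 to 88385916 and Ambn (ENSMUSG00000029288) from 88455991 to 88468531. Amelx (ENSMUSG00000031354) lies on chromosome X from 169176114 to 169187200 on the reverse strand, inside Arhgap6, which is read the other way. The mucosal genes lie apart from these and from each other, Muc5b on chromosome 7 (141839070 to 141873084), Tff2 on 17 (31141049 to 31144282), Lipf on 19 (33961187 to 33976810), Bpifb2 on 2 (153875045 to 153895270) and Wfdc18 on 11 (83709015 to 83711348).

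The promoters of the enamel-type genes are shown because these 4 genes were found together in single cells at P15. Later no epithelial cell was rich in all 4, and Amtn and Amelx were almost or fully absent. The sequences are those of RefSeq on GRCm38.p6, from 250 bases before to 50 bases after the start, 5′ to 3′ on the strand of the gene. They cover chr5:87884760-87885059 for Odam, chr5:88375858-88376157 for Amtn and chr5:88455741-88456040 for Ambn, all on the forward strand, and chrX:169187160-169187459 for Amelx on the reverse strand. Capitals mark CCAAT, or ATTGG where it stands on the other strand.
Odam: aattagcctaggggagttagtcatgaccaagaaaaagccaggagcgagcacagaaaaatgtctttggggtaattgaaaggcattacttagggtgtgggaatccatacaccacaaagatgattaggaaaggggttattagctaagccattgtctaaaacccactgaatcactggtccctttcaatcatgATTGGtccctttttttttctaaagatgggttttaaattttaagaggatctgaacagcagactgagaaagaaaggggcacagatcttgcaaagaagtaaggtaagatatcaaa
Amtn: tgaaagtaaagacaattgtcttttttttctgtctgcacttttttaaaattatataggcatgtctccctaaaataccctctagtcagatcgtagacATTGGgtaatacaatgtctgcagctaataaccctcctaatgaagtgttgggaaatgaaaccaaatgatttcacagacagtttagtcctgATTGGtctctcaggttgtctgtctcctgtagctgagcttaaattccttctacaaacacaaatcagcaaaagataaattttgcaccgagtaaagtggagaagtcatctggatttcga
Ambn: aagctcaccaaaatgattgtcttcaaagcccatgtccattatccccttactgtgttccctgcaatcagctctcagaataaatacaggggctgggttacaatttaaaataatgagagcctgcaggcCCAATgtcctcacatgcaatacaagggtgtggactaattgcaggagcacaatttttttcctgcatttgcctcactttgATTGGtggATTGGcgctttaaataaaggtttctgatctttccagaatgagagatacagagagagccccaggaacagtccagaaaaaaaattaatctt
Amelx: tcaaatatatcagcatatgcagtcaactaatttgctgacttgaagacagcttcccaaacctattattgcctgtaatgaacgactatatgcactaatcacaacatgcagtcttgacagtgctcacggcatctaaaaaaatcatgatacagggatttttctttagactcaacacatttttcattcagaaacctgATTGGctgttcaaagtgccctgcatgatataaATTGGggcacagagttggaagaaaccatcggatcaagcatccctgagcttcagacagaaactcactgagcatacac
RefSeq promoters were matched for 7 of the 9 genes, without Muc5b and Tff2. Each of these 4 promoters held TGATTGG, the reverse of CCAATCA, beginning 64 bases before the start in Odam, 68 in Amtn, 49 in Ambn and 60 in Amelx. This motif was chosen after the sequences had been read. On either strand CCAATCA, which holds CCAAT within it, was found in 7.82% of 32851 mouse promoters of the same length, and in 4.58% within the last 100 bases before the start. CCAAT alone was found in 37.4%. The promoters of Bpifb2 and Wfdc18 held no CCAAT, and that of Lipf held it at 2 places without CCAATCA.

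At P15, Odam was the most abundant of the 9 genes in epithelial cells. Ambn (646 CPM) and Amelx (647 CPM) came next, then Amtn (210.3 CPM), and the mucosal genes were at or near 0. The place of Amelx rested on 1 cell, without which it had 192 CPM, below Ambn and Amtn. At P25, Odam remained the most abundant, Ambn was lower in epithelial than in mesenchymal cells, and Amtn and Amelx were almost gone. At 8 weeks, Odam and 5 UMIs of Ambn were all that was found in 101 epithelial cells. A gene was called above the mesenchymal level where its CPM, with 1 CPM added to both levels, was at least 4 times higher and where the Poisson intervals did not overlap. This held for 4 of 9 genes at P15 (Odam, Amtn, Ambn and Amelx) and for 1 of 9, Odam, at both later times. Ambn at P15 lay close to this limit, with a ratio of 4.62 before 1 CPM was added. Only genes with at least 10 CPM in either class were compared by fold, which left 4, 2 and 2 of the 9. Of all genes so compared, 4.64% of 9172, 6.54% of 9161 and 6.54% of 9431 lay at least 4-fold higher in epithelial cells at the 3 times, and 4.39%, 9.16% and 14% lay at least 4-fold lower. The same contrast had been used to pick the genes, and nothing is read from these counts. Between times, all 4 enamel-type genes compared lay at least 4-fold lower in epithelial cells of P25 than of P15, as did 1.75% of all genes (1.96% lay higher). Genes under 10 CPM at the later time were compared only through the earlier one and could not come out higher. These were Amtn and Amelx at both later times, Ambn at 8 weeks, and Odam in mesenchymal cells. Nothing is read from the counts between times. Against P15, the 8-week epithelial cells were also at least 4-fold lower for all 4, as for 5.66% of genes (1.25% higher), and against P25 for both genes that could be compared, as for 2.31% (0.323% higher). In mesenchymal cells Odam was lower at P25 and at 8 weeks than at P15 and Ambn was not past the fold, where 0.415% and 0.546% of genes lay lower and 0.899% and 0.762% higher. Between P25 and 8 weeks Ambn alone could be compared there and was not past the fold, with 0.672% of genes lower and 0.406% higher.

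**Figure D1:**
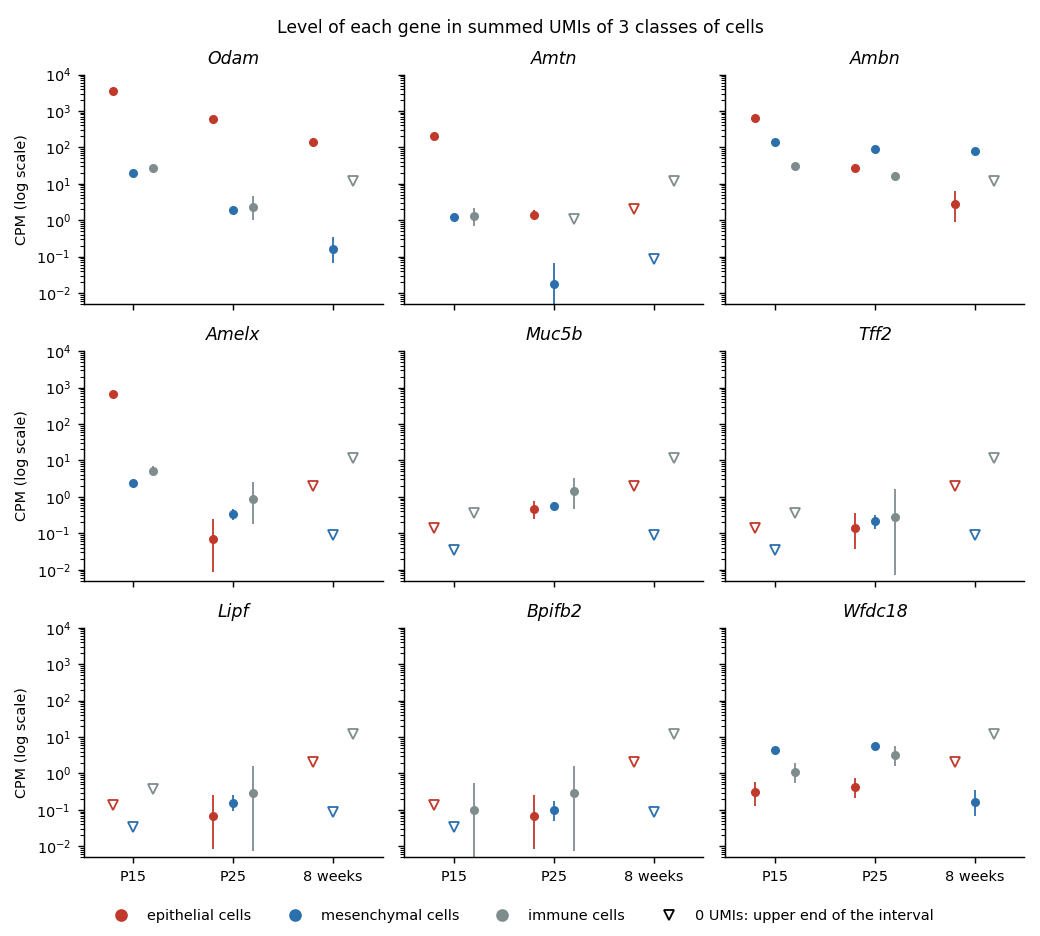
Level of each gene in CPM (log axis) in the summed UMIs of epithelial, mesenchymal and immune cells at P15, P25 and 8 weeks, 1 library each, with exact 95% Poisson intervals and open triangles at the upper end of the interval where no UMI was found. Odam lies above the other classes at all 3 times (3606, 598 and 143 CPM in epithelial cells), whereas Ambn lies above mesenchymal cells at P15 and below them at P25 and 8 weeks.

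Epithelial cells had 3606 CPM of Odam at P15 (interval 3583 to 3629). The P25 level was 598 CPM (589 to 607), and the 8-week level 143 CPM (126 to 161). In mesenchymal cells the gene had 19.3, 1.88 and 0.167 CPM at these times. All intervals given here cover counting error only. The epithelial level was 6.03 times lower at P25 than at P15, and 4.19 times lower at 8 weeks than at P25. Epithelial cells held 93.5%, 96.9% and 94.2% of all Odam UMIs of their libraries. Cells with at least 10 UMIs of a gene are called rich in it here. At P15, 141 of 1506 epithelial cells (9.36%) were Odam-rich. At P25 these were 145 of 860 (16.9%), and at 8 weeks 6 of 101 (5.94%). The lower epithelial level at P25 went with a higher share of Odam-rich cells, which held fewer UMIs each, and with deeper cells, since epithelial cells had a median of 15092, 33094 and 16830 UMIs at the 3 times. Their median was 360.0 UMIs at P15, in a range from 10 to 2873. At P25 it was 66.0 UMIs (10 to 673) and at 8 weeks 41.5 UMIs (10 to 65), while the median total of these cells was 14953, 32825 and 16903 UMIs. Odam also differed with the collagen UMIs of epithelial cells at P15, and less so in the other direction at P25. At P15 the 606 epithelial cells with at least 20 UMIs of Col1a1, Col1a2 and Col3a1 summed had 5097 CPM of Odam. The other 900 had 2137 CPM. The same split gave 543 and 656 CPM at P25, in 317 and 543 cells. In the 8-week library it gave 42.2 CPM, from 16 UMIs in 18 cells, and 169 CPM in 83 cells, too few to read a direction. The part of collagen UMIs in the result was not tested.

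After each cell had been thinned to 3000 UMIs, an Odam UMI was found in 21.6%, 20.4% and 9.89% of epithelial cells at the 3 times. Thinning left out 101, 46 and 10 shallower epithelial cells. The shares without thinning were 42.8%, 33.1% and 13.9%. Mesenchymal cells, thinned alike, had 5.63%, 0.475% and 0.0507%, and immune cells 10.6%, 0.495% and 0%. The Odam CPM of mesenchymal cells was 0.535%, 0.315% and 0.117% of the epithelial CPM. For 9 other epithelial genes, among them Krt17 and Dsp, this ratio had a median of 1.27%, 1.12% and 0.738%, and Odam lay below the range of these genes at P15 (0.786% to 4.75%) and P25 (0.343% to 2.55%) and within it at 8 weeks (0.0851% to 3.30%).

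Amtn, the gene of amelotin, had 210.3 CPM (205 to 216) in epithelial cells at P15 and 1.24 CPM in mesenchymal cells. At P25 it had 41 UMIs in 860 epithelial cells, or 1.43 CPM (1.02 to 1.93), and 20 of these were in 1 cell, without which the level was 0.731 CPM. At 8 weeks no Amtn UMI was found in epithelial cells, for which the interval reached up to 2.01 CPM. Amtn-rich epithelial cells numbered 84, 1 and 0, and at P15 they held a median of 45 UMIs (10 to 227).

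Amelx, the gene of amelogenin, had 647 CPM (638 to 657) in epithelial cells at P15, but this value rested on a single cell. That cell held 11974 Amelx UMIs, 68.1% of the library's and 45.2% of its own 26476 UMIs. Without it the level was 192 CPM (186 to 197), just below that of Amtn. The other genes of this cell differed from those of most Amelx-rich cells. It held 1075 UMIs of Ambn and 690 of Enam, the gene of enamelin, more Ambn than any other epithelial cell of its library. Of Odam it held 15 UMIs, of Amtn 12, of Klk4, a protease of the maturation stage, 3, and of the enamel-type gene Scpppq1 0. It just passed for epithelial by Epcam and Trp63, with 1 UMI, held 25 UMIs of Krt5 and Krt14 and none of the reporter, and was among the 6% of cells with the highest doublet scores. At P25 Amelx had 2 UMIs in epithelial and 37 in mesenchymal cells (0.0695 and 0.340 CPM), and at 8 weeks none in either.

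Ambn, the gene of ameloblastin, did not keep to epithelial cells. In these it had 646 CPM (636 to 656) at P15 and 26.9 CPM (25.1 to 28.9) at P25. At 8 weeks 5 UMIs gave 2.72 CPM (0.884 to 6.35). Mesenchymal cells had 139.8, 88.6 and 78.4 CPM, a range of 1.78-fold. The log2 ratio of epithelial to mesenchymal cells was 2.20, -1.68 and -4.41, so that the sign differed between P15 and the later times. Mesenchymal cells held 38.9%, 78.6% and 93.4% of the gene's UMIs. Among the epithelial cells at P25, Ambn stood with collagen UMIs. The 317 cells with at least 20 collagen UMIs had 46.8 CPM, and the 543 others 5.88 CPM. At P15 this split gave 910.1 and 385 CPM. Both were higher than in mesenchymal cells, but the 385 CPM did not reach 4 times the mesenchymal level.

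The ratio of each gene to Odam was compared between the classes. At P15, Amtn had 5.83 UMIs per 100 Odam UMIs in epithelial cells, 6.44 in mesenchymal and 4.83 in immune cells, and Amelx had 18.0, 12.2 and 19.7. Without the cell that held most Amelx UMIs, the epithelial value of Amelx was 5.31, below both other classes. Ambn had 17.9 UMIs per 100 Odam UMIs in epithelial cells, but 724 in mesenchymal and 114 in immune cells. Of 6725, 6521 and 4528 mesenchymal cells, 428 (6.36%), 270 (4.14%) and 52 (1.15%) were Ambn-rich. They held a median of 15, 15 and 12 UMIs and at most 94, 66 and 31. No Epcam UMI was found in them, which the definition of the class requires.

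The Ambn-rich mesenchymal cells were not evenly spread over the mesenchyme. Pcp4, which codes for a calmodulin-binding protein, had 1454 CPM in them and 301 CPM in mesenchymal cells without an Ambn UMI at P15. At P25 the values were 1108 and 141 CPM, and in the 8-week library 1273 and 268. Vcan, Bambi and Crabp1, which the study names with Pcp4 as markers of 1 cluster of cementoblast precursors, were higher in them too, by log2 ratios from 1.08 to 2.55 over the 3 times. These markers had been picked on the same libraries and are not independent evidence. The mineralised matrix gene Ibsp was lower, with 615 against 5928 CPM at P15, 893 against 7778 at P25, and 613 against 9804 in the 8-week library. Dmp1 and Hand2 were lower as well, with log2 ratios from -4.36 to -2.01. Among further cementoblast markers at P15, Enpp1 and Phex were lower, with 10.1 against 70.9 and 1.24 against 4.69 CPM. Bglap had 854 against 1071 CPM there, and Ifitm5 was higher, with 104.7 against 61.4 CPM. Pthlh, the gene whose reporter was sorted, had 48.6 against 219 CPM at P15, but 193 against 245 CPM at P25, and 219 against 251 in the 8-week library. Odam, Amtn and Amelx were no higher in the Ambn-rich cells at P15, with 17.1 against 20.03, 1.24 against 1.27 and 2.23 against 2.25 CPM. Enam had 5.07 against 0.172 CPM at P15 and 1.68 against 0.0408 at P25. Dspp, the odontoblast gene, had 4.21 against 1.75 CPM at P15 and 1.12 against 7.54 at P25. The whole 8-week library held only 3 Dspp UMIs, none in Ambn-rich cells, so nothing can be read there. Of all genes compared in the same way, 1.47%, 0.906% and 0.767% lay at least 4-fold higher in Ambn-rich cells and 1.82%, 1.51% and 2.22% lay lower. The 5 genes most like Ambn across mesenchymal cells were Pcp4, Wfikkn2, Apod, Hmgn3 and Ntng1. Their Pearson correlation with it, a mean over the 3 libraries of log-scaled counts, was 0.50, 0.46, 0.45, 0.43 and 0.43. The points of such a correlation are cells of 1 library and share its depth and free RNA.

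**Figure D2:**
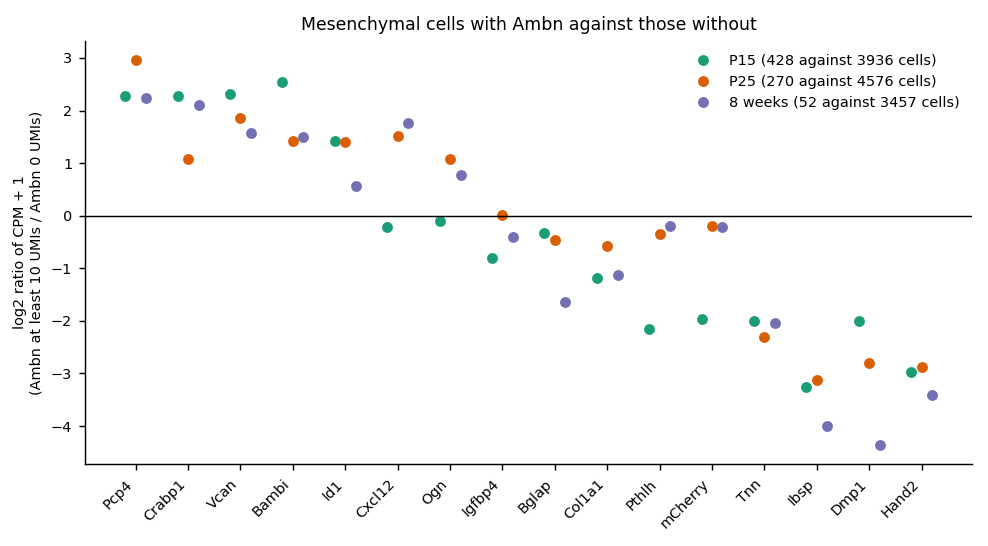
Log2 ratio of CPM (with 1 CPM added) of named genes between mesenchymal cells with at least 10 UMIs of Ambn and those with none, 1 point per time point. Pcp4, Crabp1, Vcan and Bambi lie above 0 at all 3 times, and Tnn, Ibsp, Dmp1 and Hand2 lie below 0.

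In single epithelial cells at P15 the enamel-type genes came together. Of the 84 Amtn-rich cells, 72 (85.7%) were Odam-rich, and these were 51.1% of the 141 Odam-rich cells. All 53 Amelx-rich cells were rich in both Odam and Ambn, and 48 of them in Amtn. Cells rich in all 4 genes numbered 48, with a median of 1397 UMIs of Odam, 79.0 of Amtn, 109 of Ambn and 59.5 of Amelx. The Pearson correlation over the 1506 cells was 0.79 for Odam with Amtn, 0.70 for Odam with Amelx and 0.72 for Amtn with Amelx. For Ambn it was 0.68 with Amtn, 0.60 with Odam and 0.55 with Amelx. The rank correlation (Spearman) of these pairs was lower, from 0.26 for Ambn with Amelx to 0.48 for Amtn with Ambn. Thinned to 3000 UMIs, 84.1% of the 113 cells with an Amtn UMI also had Odam, which was found in 21.6% of all epithelial cells.

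Ambn was also found alone. At P15, 87 epithelial cells were rich in Ambn and in none of the other 3, with a median of 22.0 Ambn UMIs, and 45 were rich in Odam only, with a median of 22.0 Odam UMIs. The Ambn-only cells had 657.5 CPM of Sema3d, a secreted guidance protein, 505 CPM of the transcription factor Sox9 and 1001 CPM of Wnt4. The cells rich in all 4 genes had 275, 1.24 and 270 CPM of the same genes. The 45 Odam-only cells had 67.4, 159 and 391 CPM, and the 1266 cells rich in none of the 4 had 79.9, 144 and 390 CPM. Across mesenchymal cells of P15, Sox9 also followed Ambn, with a correlation of 0.47. Krt5 and Krt14 had 1080 and 2846 CPM in the Ambn-only cells. They had 3328 and 8119 CPM in the 48 cells and 3844 and 11483 CPM in the 1266. Of the 87 cells, 24 had fewer than 20 collagen UMIs and 13 were among the highest doublet scores, against 15 and 2 of the 48. Of the 1266 cells, 813 and 121 were so. The part of doublets in these groups was not tested.

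At P25 this combination was not found. Of the 145 Odam-rich cells, 141 were rich in Odam only, 3 also in Ambn and 1 in Ambn and Amtn. All 4 cells with a further gene were among the highest doublet scores, against 14 of the 141. They held a median of 135 collagen UMIs, against 16 in the Odam-only cells. The part of doublets was not tested here either. The correlation of Odam with Amtn was 0.20 over 860 cells and that of Odam with Ambn was near 0. No cell of 860 was rich in all 4 genes, which allows a share of up to 0.349% by 3 counts and 0.428% by the upper end of the Clopper-Pearson interval, where P15 had 48 of 1506. With at most 1 Amelx UMI in any epithelial cell at P25, this count could not have been other than 0. At 8 weeks the 6 Odam-rich cells were rich in no other of the 4. Cells rich in the 4 genes summed made up 16.9% (15.1% to 18.9%), 18.7% (16.2% to 21.5%) and 5.94% (2.21% to 12.5%) of epithelial cells at the 3 times, against 6.69%, 4.17% and 1.15% of mesenchymal cells, of which 428, 270 and 52 were rich in Ambn. With epithelial cells thinned to 3000 UMIs the shares were 10.2%, 6.88% and 1.10%, so that the order of P15 and P25 depended on depth. The mesenchymal shares were not thinned, and mesenchymal cells were shallower at 8 weeks.

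**Figure D3:**
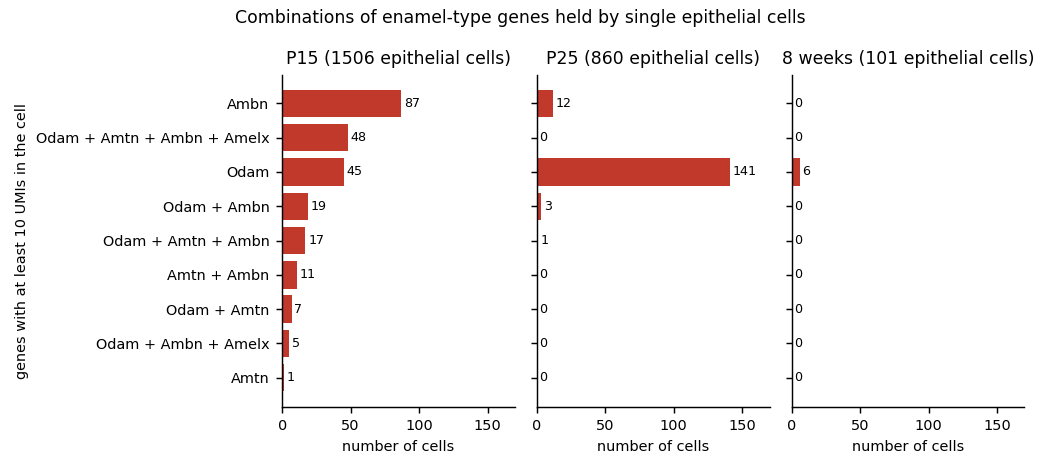
Number of epithelial cells holding at least 10 UMIs of each combination of Odam, Amtn, Ambn and Amelx at P15, P25 and 8 weeks. The 48 cells with all 4 genes and the 87 with Ambn only are the longest bars at P15, and 141 of the cells at P25 and all 6 at 8 weeks have Odam only.

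**Figure D4:**
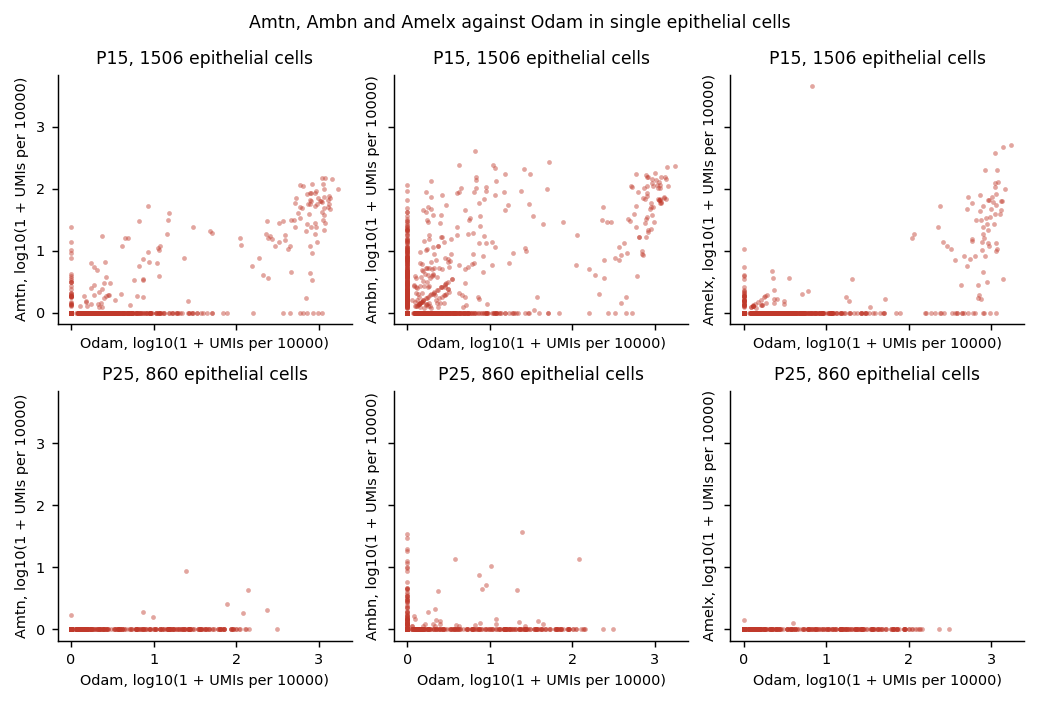
Each point is 1 epithelial cell at P15 (upper row, 1506 cells) or P25 (lower row, 860 cells), with Odam on the x axis and Amtn, Ambn or Amelx on the y axis, both as log10 of 1 plus UMIs per 10000. At P15 the cells highest in Odam are also high in the other genes, and the cell with 11974 Amelx UMIs stands alone at low Odam, while at P25 nearly all cells with Odam lie at 0 of Amtn and Amelx.

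The genes most like Odam across epithelial cells of P15 and P25 were Ggt1, 2200002D01Rik, Clu, Gm17660 (Scpppq1) and Fxyd4, with mean correlations of 0.69, 0.68, 0.67, 0.66 and 0.58. Clu is the secreted chaperone clusterin, and Scpppq1 is a further gene of the secretory calcium-binding phosphoprotein family. Amtn was most like Odam, Gm17660, Ggt1, Clu and Acp4 (0.79 to 0.73, P15 only), and Amelx most like Acp4, Clu, Ctrc, Ggt1 and Slc24a4 (0.78 to 0.73, P15 only). Acp4 is an acid phosphatase needed for enamel, and Slc24a4 a calcium exchanger of maturation-stage ameloblasts. Ambn was most like Sema3d, Crtac1, Sulf1, Adgrf4 and Id4 (0.51 to 0.44 over P15 and P25). At P15 alone Amtn and Odam stood closest to it (0.68 and 0.60), and at P25 alone Sox9 (0.54). Of the 16 Ambn-rich epithelial cells at P25, 15 had at least 20 collagen UMIs. The 12 of them rich in Ambn only held a median of 196.5 collagen UMIs, and 5 were among the highest doublet scores. Across mesenchymal cells of P25, Sox9 also followed Ambn, with a correlation of 0.41. The part of doublets in the P25 value was not tested.

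Odam-rich cells carried different genes at P15 and P25. At P15 they had 301 CPM of Enam, 288 CPM of Klk4 and 45.7 CPM of Mmp20, an enamel matrix protease, against 0.834, 0.139 and 0.0695 CPM in the 862 cells without an Odam UMI. Of the 706 Enam UMIs in the Odam-rich cells, 690 lay in the cell that held most Amelx, so the Enam value rested on it. That cell held 3 of the 676 Klk4 UMIs and 11 of the 107 Mmp20 UMIs. At P25 Enam, Klk4 and Mmp20 were at 0 CPM in Odam-rich cells. The make-up of these cells also differed, since 45 of 141 at P15 and 141 of 145 at P25 were rich in Odam only. At P15 the Odam-only cells had 6.12 CPM of Klk4, 2745 of Scpppq1 and 1622 of Krt17. The other 96 had 439, 19656 and 875 CPM, and the Odam-only cells of P25 had 0, 617 and 10281. Over all Odam-rich cells, Scpppq1 had 13765 against 9.87 CPM at P15 and 636 against 1.69 CPM at P25. Odaph, the odontogenesis-associated phosphoprotein, had 14.1 against 0.417 and 38.4 against 0.0528 CPM. Of the 10 genes of keratinised epithelium, 7, 9 and 9 could be compared at the 3 times. At least 4-fold higher in Odam-rich cells were 0, 2 and 2 of them (Krt16 and Sprr1a), and lower were 2 (Krt4 and Krt13), 3 (Krt1, Krt10 and Krt13) and 2 (Krt1 and Krt10). Krt17 had 1135 against 816 CPM at P15, but 10048 against 866 at P25, and 6008 against 948 in the 8-week library. Krt16 had 152 against 189 CPM at P15, but 5575 against 993 at P25, and 8663 against 372 in the 8-week library. Krt6a did not reach the fold at any time, with 823 against 1164, 5502 against 3375 and 7860 against 2714 CPM. Krt13 and Krt10, keratins of differentiating stratified epithelium, had 155 and 31.0 CPM in Odam-rich cells at P25 against 2081 and 587 CPM in those without. Of all genes compared, 2.25%, 1.78% and 3.85% lay at least 4-fold higher in Odam-rich cells at the 3 times and 0.586%, 0.658% and 15.7% lower, the last with 6 such cells.

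Of 13 other enamel genes examined, 8 reached 10 CPM at P15, and 6 of these lay at least 4-fold above mesenchymal cells (Scpppq1, Fam83h, Enam, Klk4, Wdr72 and Acp4), with a median log2 ratio of 3.83 over the 8 against -0.01 over all genes compared. At P25, 2 of 4 did (Scpppq1 and Fam83h), and at 8 weeks 1 of 3 (Fam83h), with medians of 1.63 and -1.35 against -0.03 and -0.12. The epithelial level of Scpppq1 was 1240, 116 and 0.544 CPM at the 3 times. Enam had 27.9, 0.0695 and 0 CPM, and Klk4 25.9, 0.0695 and 0 CPM. At P15, 690 of the 734 epithelial Enam UMIs lay in the cell that held most Amelx. The P15 level of Enam and its place among the 6 genes rested on that cell. Fam83h, a keratin-associated protein needed for enamel, had 32.8, 37.8 and 49.0 CPM. The transcription factors Sp6 and Dlx3 were not above mesenchymal cells at any time.

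The mucosal genes were not found in the epithelial cells as defined. Muc5b, Tff2, Lipf and Bpifb2 had no UMI there at P15 and 8 weeks, and 13, 4, 2 and 2 UMIs at P25, no cell holding more than 1. Their levels at P25 were 0.0695 to 0.452 CPM, against 0.101 to 0.560 CPM in mesenchymal cells. For each gene the intervals of both classes overlapped, so no direction can be read. Epithelial cells with at least 10 UMIs of the 5 mucosal genes summed numbered 0 of 1506, 0 of 860 and 0 of 101, which allows shares of up to 0.199%, 0.349% and 2.97% by 3 counts, and 0.245%, 0.428% and 3.59% by the upper end of the Clopper-Pearson interval. No cell of any class at P25 or 8 weeks was rich in both sets of genes, and 1 cell outside the classes was at P15.

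At P25, 97.8% of Muc5b UMIs, 99.3% of Tff2, 98.9% of Lipf and 98.9% of Bpifb2 lay in 2 cells that the definition left out. Cell A held 2135 UMIs of Muc5b, 1482 of Tff2, 2240 of Lipf, 849 of Bpifb2 and 69 of Wfdc18, together 23.9% of its 28344 UMIs. Cell B held 1808, 3142, 50 and 910 UMIs of the first 4 and 12 of Wfdc18, together 17.7% of its 33526 UMIs. Both were alike in the mucin, the trefoil factor and Bpifb2 and differed in gastric lipase, of which cell A held 96.7% of the library's UMIs. Both were epithelial by Epcam (31 and 83 UMIs) and by the simple-epithelium keratins Krt8 (49 and 111) and Krt18 (39 and 114), but held 2 and 1 UMIs of Krt5 and Krt14 and none of Trp63. They also held Agr2, a folding enzyme of mucin-secreting cells (134 and 574 UMIs), Gp2, Wfdc2, Wfdc12 and the salivary gene Smgc (87 and 128). Neither held a UMI of Pthlh or of the mCherry reporter for which the cells were sorted, and neither was among the highest doublet scores. With 2 cells of 1 library, no time course can be read for these genes. Outside cells A and B, no cell at P25 held more than 2 UMIs of any of the 4.

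**Figure D5:**
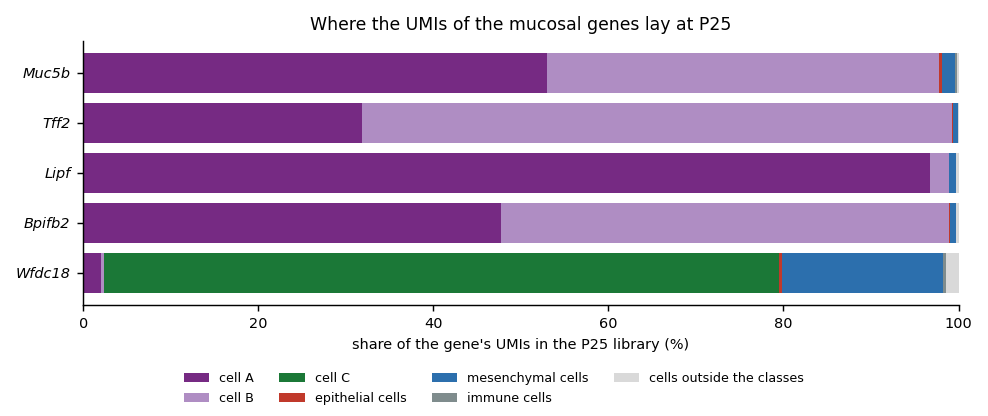
Share of each mucosal gene's UMIs at P25 held by cells A, B and C, by the remaining epithelial, mesenchymal and immune cells, and by cells outside the classes. Cells A and B hold between 97.8% and 99.3% of Muc5b, Tff2, Lipf and Bpifb2, and cell C holds 77.1% of Wfdc18.

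Wfdc18, a small protein with a whey acidic protein domain, followed neither the mucosal genes nor the epithelial definition. At P25 a further cell, C, held 2590 of its 3360 UMIs and none of Muc5b, Tff2, Lipf or Bpifb2. This cell had 27 UMIs of Epcam, 51 of Krt8, 1 of Krt14, 535 of Ltf (lactoferrin) and 175 of Dmbt1, and 1 UMI of the reporter. The remaining UMIs lay mostly in mesenchymal cells, which had 4.50, 5.66 and 0.167 CPM at the 3 times, where epithelial cells had 0.305, 0.417 and 0 CPM. Wfdc18-rich mesenchymal cells numbered 16 at P15 and 12 at P25, with a median of 19.0 and 35.5 UMIs, and none at 8 weeks. These cells held no Epcam UMI, which the definition of the class requires. The gene most like it there was Wfdc17, of the same family, with a correlation of 0.28 at P15 and 0.39 at P25, where the next gene reached 0.20.

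Of 27 other mucosal and salivary genes, few were expressed in epithelial cells. Those that reached 10 CPM in either class numbered 5, 3 and 4, of which Wfdc2 alone lay at least 4-fold above mesenchymal cells, with 207 against 7.98 CPM at P15, 452 against 2.85 at P25, and 444 against 2.70 in the 8-week library. Creb3l1 lay lower at all times (33.8 against 173 CPM at P15), and Aqp5 at 8 weeks. Muc5ac, Muc4, Tff3, Bpifa1, Bpifa2, Lpo, Prol1 and Dcpp1 had fewer than 20 UMIs in each whole library, and Dmbt1 had 176 at P25, 175 of them in cell C. Bpifb1, from the family of Bpifb2, had 26 UMIs at P25, with 0.904 CPM in epithelial and 0 CPM in mesenchymal cells.

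The definition of an epithelial cell left out cells that held these genes. Cells just inside it, with 5 to 7 UMIs of Krt5 and Krt14, and just outside it, with 2 to 4, both with a UMI of Epcam or Trp63, had 56.4 and 30.0 CPM of Odam at P15 (122 and 285 cells), and 167 and 144 CPM of Ambn. At P25, with 28 and 86 cells, Muc5b had 0 CPM inside and 1215 CPM outside, where cell A lies. Cells rich in Odam outside the 3 classes numbered 38 at P15 and 10 at P25, and 35 and 10 of them had no UMI of Epcam or Trp63.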

How the data were processed

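Single-cell libraries (10x Chromium 3′ v3.1) were made by the authors from sorted cells, 1 library per time point, and the files hold UMI counts per gene and cell as deposited, not normalised. Per the file headers, Cell Ranger 6.1.2 wrote the P15 and 8-week counts and 6.0.1 the P25 counts, on a larger gene table, whereas the processing notes name 6.1.2 and mm10 throughout. Libraries were joined by gene identifier (21446 shared), and all cells were kept.

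Mesenchymal cells had at least 20 UMIs of Col1a1, Col1a2 and Col3a1, fewer than 5 of Krt5 and Krt14, and none of Epcam, Trp63, Ptprc, Tyrobp, Pecam1 and Cdh5. Immune cells had at least 3 UMIs of Ptprc, Tyrobp and Fcer1g, fewer than 5 of Krt5 and Krt14, and none of Epcam and Trp63. Counts were summed over each class, with exact Poisson intervals for sums and Clopper-Pearson intervals for shares (95%), in Python 3.11.15 with numpy 2.4.6, scipy 1.17.1 and pandas 2.3.3. Correlations used the log of 1 plus UMIs per 10000. Doublets were scored with Scrublet in scanpy 1.11.5 and kept in the main values, since its automatic threshold marked 408, 0 and 6 cells. Leaving out the highest 6% of scores was an alternative. Scripts were tested on simulated data.

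The 9 genes, the gene lists and the alternatives were chosen with earlier results of these data known. Named besides the 9 genes were the 5 genes with the highest mean correlation with each, across libraries with at least 20 cells holding a UMI of it, and genes of the enamel and mucosal lists past the fold or absent. Likeness in mesenchymal cells, cells A to C and the genes set against them, and genes compared between rich cells and the rest, were chosen after their values were seen.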

Additional observations from a re-analysis of the deposited data

Results flagged for a closer look

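The log2 ratio of Ambn between epithelial and mesenchymal cells was 2.20 at P15. At the later times it had the other sign, -1.68 at P25 and -4.41 in the 8-week library. The difference between times was not tested, since each time had 1 library. Epithelial cells with fewer than 20 collagen UMIs had 385 CPM of Ambn at P15 and 5.88 CPM at P25, and mesenchymal cells 139.8 and 88.6 CPM, so the sign was the same in them.

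UMIs of the mucosal genes lay outside the 3 classes at P25, in cells that the comparisons did not use. There Muc5b had 3952 UMIs, Tff2 4628, Lipf 2296, Bpifb2 1764 and Wfdc18 2720. Cells A and B held between 97.8% and 99.3% of the library's UMIs of the first 4, and cell C held 77.1% of those of Wfdc18.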

How the results depend on the processing

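Of the values that answer a comparison, 118 alternatives moved them by less than counting error or 1.5 times and 20 by more. Among the 118 are shares of epithelial cells rich in mucosal genes or in both sets. These lay at or near 0, with cells A to C left out by the definition, and had little room to move. For the CPM of the 9 genes in epithelial cells, 57 alternatives moved the level by more and 132 did not. Cells rich in enamel-type genes made up 16.9% of epithelial cells at P15, but 13.9% where a cell was taken by at least 5 Epcam UMIs without regard to keratins, 12.9% and 24.0% with at least 20 and at least 5 UMIs, 10.2% after thinning and 10.1% in cells with fewer than 20 collagen UMIs. At P25 the share was 18.7%, and 22.1% by Epcam, 14.3% and 23.5% with 20 and 5 UMIs and 6.88% after thinning, which gave 1.10% at 8 weeks, so that thinning turned the order of P15 and P25. By Epcam, chosen after seeing the data, 0.737% of P25 cells were rich in mucosal genes, and 6 of the 9 genes lay above mesenchymal cells in place of 1. At P15, 3 genes did by Epcam in place of 4, with Ambn at 419 CPM and no longer past the fold. The mucosal genes moved most by Epcam at P25, from at most 0.452 CPM to 215 CPM of Muc5b, 252 of Tff2, 125 of Lipf, 96.0 of Bpifb2 and 146 of Wfdc18. By intervals alone, 2 genes lay above mesenchymal cells at P25. Genes past the fold numbered 829, 1438 and 1937, but 1991, 3059 and 3738 at a fold of 2, 289, 539 and 842 with 10 CPM added, and 1391 against immune cells at P15. Amelx at P15 had 192 CPM without its top cell, 196 with stricter keratin and Epcam limits and 223 without likely doublets, and Ambn at P25 had 5.88 CPM in cells with fewer than 20 collagen UMIs, 11.6 by Epcam and 12.1 without likely doublets. No paired analysis was possible because each time point has 1 library. Free RNA, depth and 101 epithelial cells at 8 weeks limit what can be read for low genes.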
